A study of Rattus norvegicus with 6 samples.

Results

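The cytochrome P450 genes of rat lung were taken as every gene of the table whose symbol begins with Cyp and a digit, with 1 identifier per symbol, which gave 71 of 23802 genes. They were followed in whole lung from 3 control samples and 3 samples of rats given monocrotaline (MCT), a plant alkaloid that produces pulmonary arterial hypertension in rats. All rats were wild-type male Sprague-Dawley animals of 200 to 250 g, and no age is stated. The MCT rats received 1 dose of 60 mg/kg and their lungs were taken 4 weeks later, while controls received saline. The labels name both the intraperitoneal and the subcutaneous route for MCT and only the subcutaneous route for saline, so the route may have differed between the groups. The series title centres on PDZ-binding kinase in vascular remodelling, and the comparison used here asks which P450 transcripts differed between control and MCT lung.

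P450 enzymes are haem proteins that insert oxygen into small molecules, mostly in the endoplasmic reticulum and some in mitochondria, with electrons from P450 oxidoreductase or ferredoxin. One set clears drugs and inhaled chemicals, and in lung it is concentrated in club cells, alveolar epithelium and some endothelium. Others make or break signals: epoxides and hydroxy acids from arachidonic acid, oxysterols, steroid hormones, retinoic acid and vitamin D. MCT itself becomes toxic only after liver P450 enzymes of the 3A subfamily turn it into a reactive pyrrole that reaches the lung with the blood.

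Of the 71 genes, 31 had enough counts to be tested, 26 had a few counts and 14 had none in any library. Levels between genes are given as FPKM (fragments scaled by gene length and library size, the authors' values) and comparisons between groups as CPM (counts scaled to library size with TMM factors). Where 3 values are given for a group they are those of replicates 1, 2 and 3 in that order. Called means a Benjamini-Hochberg adjusted p under 0.05 in edgeR's quasi-likelihood test over all 15250 tested genes, and every adjusted p below comes from that test unless another is named.

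Summed counts ranged from 13525912 to 17916134 per sample. Lung markers were abundant in every sample, with the alveolar type 2 list (Sftpc, Sftpb and others) at a summed 10930 to 22178 FPKM and the alveolar type 1 list at 1900 to 3524 FPKM. Alb, the defining hepatocyte gene, had 0 or 1 counts in every library, and the hepatocyte list, mostly Serpina1, summed to 13.8 to 28.7 FPKM in controls and 1.56 to 20.6 FPKM in MCT lung. Among marker lists, 6 of 7 tested macrophage genes rose (C1qa, C1qb, Cd68, Mrc1, Adgre1 and Siglec1). So did Acta2, Cnn1 and Smtn of 6 smooth muscle genes and Col1a1 and Scara5 of 8 fibroblast genes. Lower genes were Msln, Upk1b, Upk3b and Lrrn4 of 6 mesothelial genes and Calcrl, Tek and Cdh5 of 8 endothelial genes. Etv5, Slc34a2 and Abca3 of 8 type 2 genes and Rtkn2 of 6 type 1 genes were also lower. The same held for Inmt of 8 fibroblast genes and Scgb3a1 of 6 tested secretory genes. The remaining tested genes of these lists did not pass. Fold changes were positive for 2 endothelial genes, 1 type 2 gene and 1 type 1 gene. Of these marker calls, Rtkn2 held in 6 of 16 alternatives, Acta2 in 7, Abca3 and Scgb3a1 in 9, Cdh5 in 11, Slc34a2 in 12 and Cnn1 in 13, and the others in all 16. The labels do not state whether each sample came from its own animal, so p-values measure only the spread between these samples. In whole lung, fewer cells of a type and less RNA per cell cannot be told apart.

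The P450 family of these lungs was dominated by a few genes. Cyp4b1, an enzyme abundant in lung that activates several inhaled or dietary toxins, was the highest of the 71 at 285 ± 69.9 FPKM in control lung (SD, n = 3). Next in control lung came Cyp4v3, a fatty acid hydroxylase, at 45.8 ± 13.5 FPKM, the club cell enzyme Cyp2f4 at 37 ± 11 FPKM, Cyp2e1 at 28.7 ± 4.26 FPKM and Cyp2a3 at 26.6 ± 6.86 FPKM (SD, n = 3). Among these 4, neighbours in that order lay apart by less than the larger of their SDs, so the order among them is not resolved, while Cyp4b1 stood clear of all of them. The 5 genes with the highest mean over all 6 samples held 67.1% of the family's FPKM. Only 11 of the 71 reached a mean of 10 FPKM and 26 a mean of 1 FPKM.

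One abundant P450 gene falls outside the symbol rule and was added after its values were seen. The locus LOC108348266, which the table describes as cytochrome P450 2B1, the phenobarbital-inducible form known in rat lung, stood at 464 ± 159 FPKM in control and 293 ± 129 FPKM in MCT lung (SD, n = 3), above Cyp4b1 on average. Its levels were 919, 563 and 1115 CPM in controls against 389, 840 and 435 CPM after MCT, so the groups overlapped. Its log2 fold change was -0.64 (SE 0.34, adjusted p = 0.237), and it was called lower only without MCT replicate 2 (-1.07, adjusted p = 0.0384). Its count was not a whole number in 4 libraries, so part of that count is uncertain. The other members of its subfamily in the table were at or near 0, with Cyp2b2 at 0 to 2 counts per library.

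**Figure D1:**
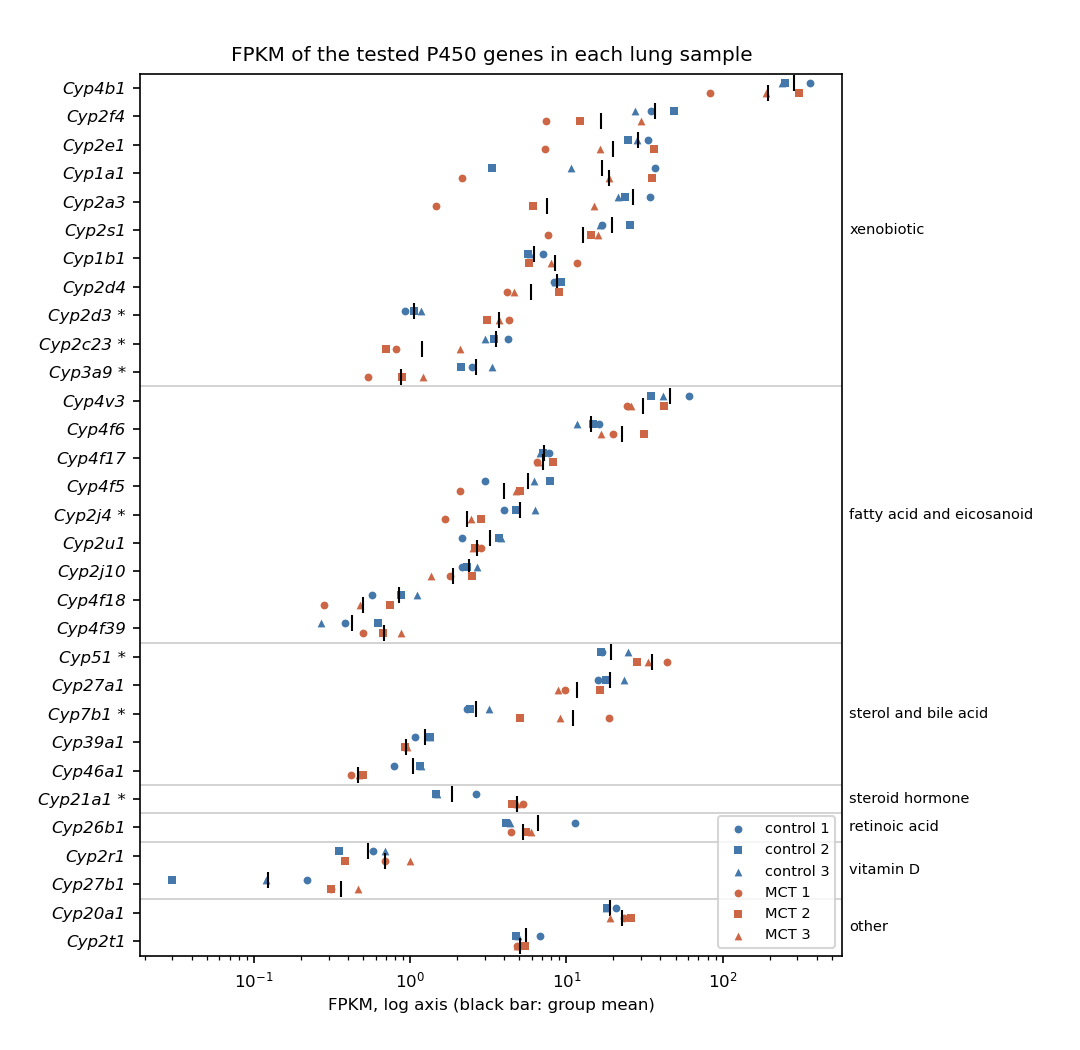
FPKM on a log axis of the 31 tested P450 genes in each of the 6 lung samples, grouped by role; symbols mark replicates 1 to 3, black bars the group means, and asterisks the 7 called genes. Cyp4b1 is the highest at 285 FPKM in control lung, and most called genes sit below 10 FPKM.

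Together the 71 genes took 0.132 ± 0.0248% of all counts in control and 0.106 ± 0.0324% in MCT lung (SD, n = 3). Sample by sample the control shares were 0.161%, 0.118% and 0.118%, those of MCT lung 0.0742%, 0.139% and 0.104%. The groups overlapped, since MCT replicate 2 lay above controls 2 and 3. With LOC108348266 the shares were 0.219 ± 0.0403% and 0.161 ± 0.0558% (SD, n = 3).

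Of these genes 7 were called: 4 of the 31 tested rose (Cyp51, Cyp7b1, Cyp21a1 and Cyp2d3) and 3 fell (Cyp2j4, Cyp2c23 and Cyp3a9), while 24 did not pass. Over all tested genes 8.01% were called higher and 5.11% lower, 13.1% in all, against 12.9%, 9.68% and 22.6% of the P450 genes. No test was made of the difference between these shares. The median log2 fold change was -0.34 over the 31 genes and -0.01 over all 15250. Control and MCT samples did not overlap in 12 of 31 P450 genes, 38.7% of them, against 35.4% of all tested genes. An unadjusted p under 0.05 in edgeR was reached by 13 of the 31, against 4579 of all 15250 tested genes.

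These counts rested on all 6 samples. Without control replicate 1, 2 or 3 the calls were 2 higher and 1 lower, 1 and 0, and 2 and 0. With MCT replicate 1, 2 or 3 left out instead they were 3 and 0, 4 and 6, and 3 and 4. Cyp2d3 was called with every sample left out and in all 16 alternatives.

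**Figure D2:**
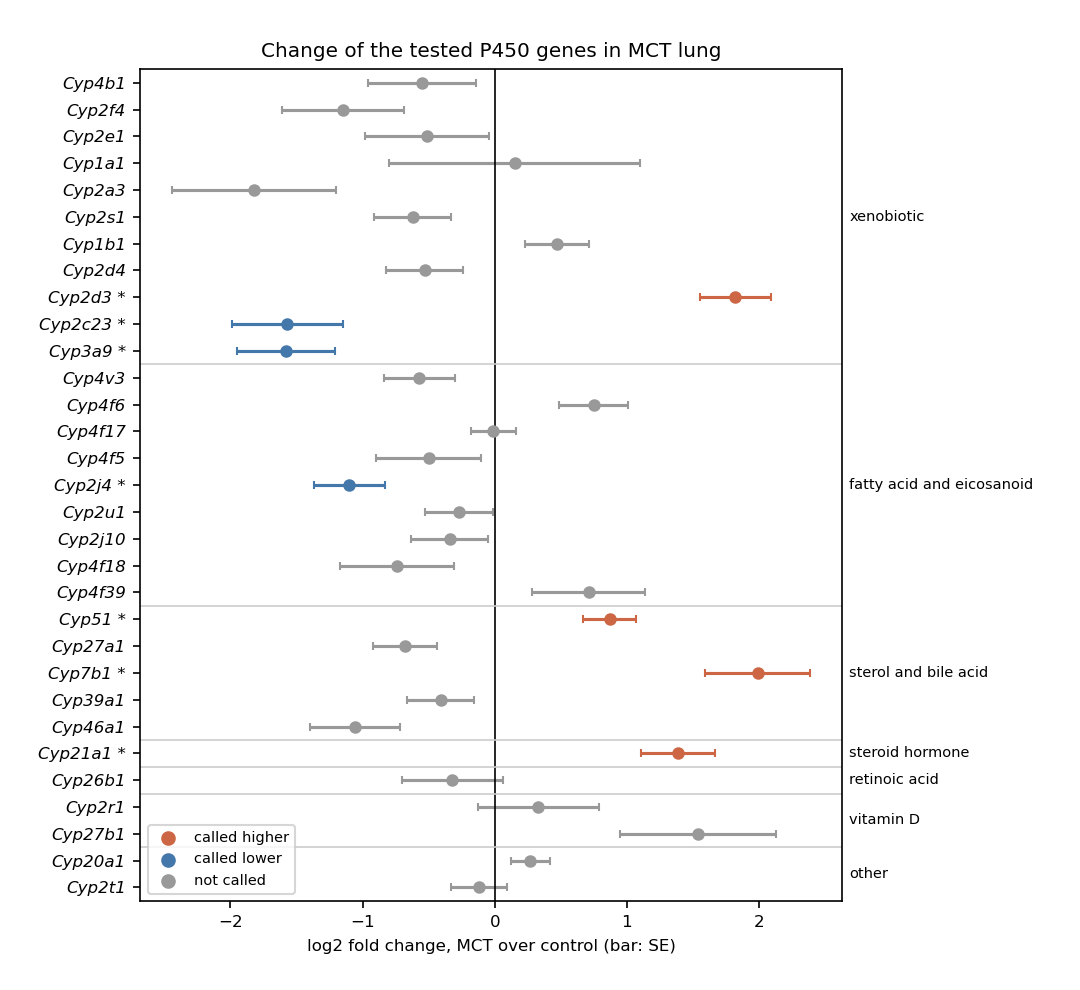
Log2 fold change of MCT over control with its standard error for the 31 tested P450 genes, grouped by role and coloured by call. Cyp7b1 and Cyp2d3 lie farthest to the right among called genes at 1.99 and 1.82, Cyp3a9 and Cyp2c23 farthest to the left at -1.58 and -1.57.

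Upstream sequence is shown for 4 genes: Cyp51 and Cyp2d3, which rose, Cyp3a9, which fell, and Cyp1b1, which did not pass. Cyp1b1 is a dioxin-inducible gene whose relative Cyp1a1 varied most among the samples. RefSeq windows were found by symbol for 57 of the 71 genes, with Cyp1a1 and Cyp7b1 not among them. Each line gives the 250 bases before the start on build GRCr8, in the direction of the gene. Capitals mark matches on either strand to GCGTG, the core of the aryl hydrocarbon response element (Cyp51 and Cyp1b1), TGACG, part of the cyclic AMP response element (Cyp51), CCAAT (Cyp2d3 and Cyp3a9) and TGAGTCA, an AP-1 site (Cyp3a9).
Cyp51, chr4:30991443-30991692, plus strand: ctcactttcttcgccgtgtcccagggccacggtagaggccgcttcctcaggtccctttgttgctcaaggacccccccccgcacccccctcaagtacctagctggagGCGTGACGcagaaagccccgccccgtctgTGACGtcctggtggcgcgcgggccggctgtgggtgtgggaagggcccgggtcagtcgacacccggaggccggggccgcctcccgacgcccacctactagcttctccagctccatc
Cyp1b1, chr6:21094315-21094564, plus strand: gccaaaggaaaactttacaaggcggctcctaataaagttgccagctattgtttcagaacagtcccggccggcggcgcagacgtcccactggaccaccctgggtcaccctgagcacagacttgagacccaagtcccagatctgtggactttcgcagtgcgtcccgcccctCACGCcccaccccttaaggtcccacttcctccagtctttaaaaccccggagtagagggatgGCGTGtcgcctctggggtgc
Cyp2d3, chr7:115802143-115802392, minus strand: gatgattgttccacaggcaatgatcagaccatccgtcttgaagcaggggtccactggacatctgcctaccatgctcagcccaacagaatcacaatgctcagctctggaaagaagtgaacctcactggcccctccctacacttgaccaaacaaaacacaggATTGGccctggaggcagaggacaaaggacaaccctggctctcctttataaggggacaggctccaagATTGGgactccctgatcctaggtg
Cyp3a9, chr12:21960161-21960410, minus strand: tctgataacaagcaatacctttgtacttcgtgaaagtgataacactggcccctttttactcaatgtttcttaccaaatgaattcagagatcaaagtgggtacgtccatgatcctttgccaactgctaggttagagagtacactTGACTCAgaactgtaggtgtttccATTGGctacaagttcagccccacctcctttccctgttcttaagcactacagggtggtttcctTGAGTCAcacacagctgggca

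In the Cyp51 window GCGTG begins 144 bases before the start and overlaps a TGACG at 141, and a further TGACG lies at 115. Cyp1b1 holds GCGTG at 81 and 20 bases before the start, Cyp2d3 CCAAT at 90 and 24, and Cyp3a9 TGAGTCA at 107 and 21 with CCAAT at 83. Such matches are common: of 33469 windows of the same length 25.9% hold GCGTG, 18.2% TGACG, 34% CCAAT and 4.05% TGAGTCA. Among the 27 tested P450 genes with a window, 11 hold GCGTG, 4 TGACG, 15 CCAAT and 2 TGAGTCA. These are matches of letters and show no binding.

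Xenobiotic enzymes formed the largest role list, with 30 genes, of which 11 were tested: 1 rose, 2 fell and 8 did not pass, with a median log2 fold change of -0.55. The most abundant of them had lower means in MCT lung but spread widely there. Cyp4b1 measured 734, 496 and 455 CPM in controls against 162, 615 and 376 CPM after MCT. MCT replicate 1 was below every control and MCT replicate 2 above controls 2 and 3. On the log2 scale the difference was -0.55 (SE 0.41, adjusted p = 0.418).

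Cyp2a3, which activates tobacco nitrosamines in rat airways, was the xenobiotic gene with the most negative fold change. It measured 59.1, 40.5 and 35.3 CPM in controls against 2.44, 10.5 and 25.4 CPM after MCT. All MCT samples lay below all controls, but the MCT samples spanned 10.4-fold among themselves, and the log2 fold change of -1.82 (SE 0.62) did not pass (adjusted p = 0.0917). It was called with limma-voom (-2.33, adjusted p = 0.0394) and when MCT replicate 3 was dropped (-2.78, adjusted p = 0.0275).

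Cyp2f4, the rat counterpart of the mouse club cell enzyme that activates naphthalene, measured 67.7, 93.9 and 50.3 CPM in controls against 14, 23.8 and 57.6 CPM after MCT. MCT replicate 3 lay within the controls, and the log2 difference was -1.15 (SE 0.46, adjusted p = 0.133), called only without that sample (-1.89, adjusted p = 0.0186). Cyp2e1, the ethanol-oxidizing form, ran from 40.7 to 55.2 CPM in controls and stood at 11.9, 60.3 and 26.7 CPM after MCT (log2 fold change -0.51, SE 0.47, adjusted p = 0.512). Without MCT replicate 2, which lay above every control, it was called lower at -1.29 (adjusted p = 0.0344). Cyp2d4 (-0.53, adjusted p = 0.257) was likewise called only without that sample (-0.98, adjusted p = 0.0146). Cyp2s1, an epithelial form, had -0.62 (SE 0.29, adjusted p = 0.186).

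Club cell markers were measured beside these genes. The summed club and secretory list ran from 15010 to 24653 FPKM in controls and from 11549 to 21869 FPKM in MCT lung, with 0 of 6 tested members higher and 1 lower. Scgb1a1, the main club cell secretory protein, had a log2 change of -0.37 (adjusted p = 0.467). The member that fell, Scgb3a1, fell by 2.29 on the log2 scale (adjusted p = 0.0495), a call kept in 9 of 16 alternatives. Leaving out any single control, MCT replicate 1 or MCT replicate 2 gave it an adjusted p of 0.0586 to 0.166. Of 6 ciliated cell genes edgeR, DESeq2 and limma-voom called 0, and 0 had an unadjusted p under 0.05. Foxj1, the most abundant of that list, had 0.18 (adjusted p = 0.673). The part of cell makeup in the P450 values was not tested.

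Cyp1a1, the classic target of the aryl hydrocarbon receptor Ahr, varied more between like samples than almost any gene. Controls held 99.1, 8.86 and 27.2 CPM, an 11.2-fold range, and MCT samples 5.63, 95 and 49.6 CPM, a 16.9-fold range. Its within-group SD of 1.90 on the log2 scale exceeded that of 99.9% of all tested genes. The log2 fold change of 0.15 (SE 0.95, adjusted p = 0.935) therefore leaves the group difference unresolved, and it ran from -0.71 to 1.47 with 1 sample left out.

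Other genes of the Ahr battery spread less within groups, with SDs on the log2 scale of 0.37 for Cyp1b1, 0.39 for Aldh3a1, 0.21 for Nqo1 and 0.20 for Tiparp. Cyp1b1, which also oxidizes estrogens and polycyclic hydrocarbons, measured 27.3, 20.8 and 21.1 CPM in controls against 43.3, 22.1 and 30.4 CPM after MCT (log2 fold change 0.47, SE 0.24, adjusted p = 0.23). The liver form Cyp1a2 had 1 count in each of 2 libraries and 0 in the other 4. Of 7 tested Ahr pathway genes 0 rose, 1 fell and 6 did not pass. The one that fell was Aldh3a1, an aldehyde dehydrogenase, from 5.16 ± 0.976 to 1.27 ± 0.646 CPM (SD, n = 3, 4.01-fold, adjusted p = 0.0137). Its call was lost only when control replicate 3 was left out (adjusted p = 0.0537). Ahr itself had a log2 change of -0.45 (adjusted p = 0.212, but adjusted p = 0.027 without control replicate 1).

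**Figure D3:**
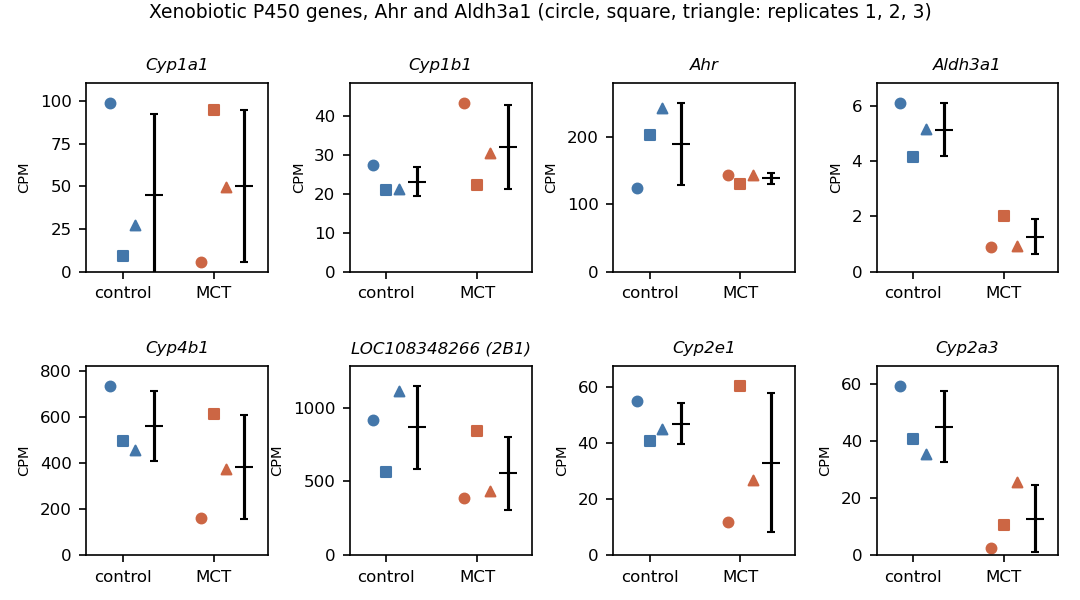
CPM on linear axes from 0 of Cyp1a1, Cyp1b1, Ahr, Aldh3a1, Cyp4b1, LOC108348266 (cytochrome P450 2B1), Cyp2e1 and Cyp2a3 in each sample, with mean and SD (n = 3) beside the points; bars that would pass below 0 end at 0. Cyp1a1 runs from 8.86 to 99.1 CPM within the controls and from 5.63 to 95 CPM within the MCT samples, while the 3 MCT samples of Aldh3a1 all lie below the controls.

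The xenobiotic genes that passed were of low level. Cyp2d3, of the drug-metabolizing 2D subfamily, rose 3.52-fold: 1.53, 1.71 and 1.83 CPM in controls against 6.92, 5.04 and 6.02 CPM after MCT (log2 fold change 1.82, SE 0.27, adjusted p = 0.00503). The groups stood well apart, and the spread within them was small. Its near copies Cyp2d5 and Cyp2d2 had 0 to 4 counts per library. Cyp2d4, the most abundant 2D gene of the 71, had 107 to 270 counts per library, not whole in 3 of them. In 2 of the 6 libraries the Cyp2d3 count was not a whole number, which an estimated count can be where reads are divided between similar loci, so part of its count is uncertain.

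Cyp3a9, of the subfamily that activates MCT in liver, fell 2.99-fold. It measured 3.86, 3.2 and 4.91 CPM in controls against 0.814, 1.36 and 1.82 CPM after MCT, without overlap (log2 fold change -1.58, SE 0.37, adjusted p = 0.0263). Leaving out control replicate 1, 2 or 3 (adjusted p = 0.0566, 0.0606 and 0.109) or MCT replicate 1 (adjusted p = 0.0709) ended the call. In RefSeq's GRCr8 gene models it overlaps Vamp7, which stood at 18.4 ± 4.01 and 20.3 ± 4.41 CPM (SD, n = 3, adjusted p = 0.694). The other 3A genes, including Cyp3a23/3a1, had 0 to 3 counts per library.

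The enzymes and receptors that accompany P450s in this work were tested as lists. None of 11 redox partner and haem supply genes was called by edgeR, where 2 had an unadjusted p under 0.05, and DESeq2 called 1 (Pgrmc1) and limma-voom 0. Por, which feeds electrons to microsomal P450s, had 164 ± 50.8 and 173 ± 30.1 CPM (SD, n = 3, log2 fold change 0.08, adjusted p = 0.856), and the most abundant gene, Pgrmc1, had -0.39 (adjusted p = 0.0813). The nuclear receptor list holds xenobiotic receptors and others. Of its 8 tested genes edgeR, DESeq2 and limma-voom each called 0, and 2 had an unadjusted p under 0.05 in edgeR. Nr1h2, an oxysterol receptor and the highest of them in level, had -0.28 (adjusted p = 0.236). The xenobiotic receptors Nr1i2 and Nr1i3 were low, at a mean of 0.43 and 0.958 FPKM over all samples. Their log2 fold changes were -0.94 (adjusted p = 0.45) and 0.20 (adjusted p = 0.732). Of 14 conjugation and companion enzymes 13 had a negative fold change, as had 7828 of all 15250 tested genes. MCT replicate 1 was the lowest MCT sample for 12 of these 14 and MCT replicate 2 the highest for 10. Only 1 was called: Fmo1, a flavin monooxygenase, fell 3.82-fold from 170 ± 24.4 to 44.5 ± 29.5 CPM (SD, n = 3, adjusted p = 0.0187). Of these 14, 7 had an unadjusted p under 0.05 in edgeR, against 4579 of all 15250 tested genes. While limma-voom called 1, DESeq2 called 5: Fmo1 (adjusted p = 0.00644), Sult1a1 (adjusted p = 0.0141), Aldh1a1 (adjusted p = 0.0243) and Gsta4 (adjusted p = 0.0106), all lower, and Ephx1 (adjusted p = 0.0358), higher. Fmo1 missed the threshold when any single control or MCT replicate 3 was dropped (adjusted p = 0.0519 to 0.0692). Ces1d, the carboxylesterase with the highest level there, had -0.34 (adjusted p = 0.456).

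P450 enzymes that act on fatty acids and eicosanoids came next in level. Of 18 genes 9 were tested, 0 rose, 1 fell and 8 did not pass, with a median log2 fold change of -0.34. Cyp4v3 measured 229, 129 and 148 CPM in controls against 88.8, 156 and 95.5 CPM after MCT. Its groups overlapped through MCT replicate 2 (log2 fold change -0.57, SE 0.27, adjusted p = 0.194), without which it was called (-0.87, adjusted p = 0.0476). Cyp4f6, of the family that inactivates leukotriene B by omega-hydroxylation, went the other way with 27.4, 24.9 and 19.1 CPM in controls against 34.9, 56.6 and 28.7 CPM after MCT. That difference of 0.75 (SE 0.26) did not pass (adjusted p = 0.0898), though DESeq2 called it (adjusted p = 0.034). Cyp4f17, at 15.3 ± 1.44 and 15.2 ± 2.23 CPM (SD, n = 3), had a log2 change of -0.01 (adjusted p = 0.977), and counts of Cyp4f17 and Cyp4f5 were not whole in 5 and 6 libraries. The 4A hydroxylases of liver and kidney, Cyp4a1, Cyp4a2, Cyp4a3 and Cyp4a8, had 0 to 7 counts per library.

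A pair of epoxygenase genes fell. Cyp2j4, which makes epoxides from arachidonic acid, fell 2.14-fold, from 7.92, 9.31 and 11.8 CPM in controls to 3.19, 5.57 and 4.76 CPM after MCT (log2 fold change -1.10, SE 0.27, adjusted p = 0.0326). Dropping control replicate 2 or 3, or else MCT replicate 1 or 3, ended the Cyp2j4 call (adjusted p = 0.0819 to 0.127). Its relative Cyp2j10 had -0.34 (adjusted p = 0.479). Cyp2c23, counted in the xenobiotic list by its subfamily but known as the arachidonic acid epoxygenase of rat kidney, fell 2.97-fold. It measured 8.32, 6.63 and 5.55 CPM in controls against 1.56, 1.36 and 3.99 CPM after MCT (log2 fold change -1.57, SE 0.42, adjusted p = 0.0432). The groups did not overlap for either gene. Of the 7 calls that of Cyp2c23 had the highest adjusted p, and dropping any single sample but MCT replicate 3 ended it (adjusted p = 0.0755 to 0.118).

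Some genes of the neighbouring arachidonate routes rose. The list of arachidonate release and epoxide breakdown, which also holds lipoxygenase and cyclooxygenase genes, had 11 tested genes with a median log2 fold change of 0.51. Of these 5 rose and 0 fell, while over all tested genes 8.01% were called higher and 5.11% lower. Alox5 and Alox5ap, the leukotriene-forming lipoxygenase and its activating protein, rose 1.97-fold (adjusted p = 0.00869) and 1.82-fold (adjusted p = 0.00443). Ptgs1, the constitutive cyclooxygenase, rose 1.89-fold (adjusted p = 0.00696). Pla2g4a, which frees arachidonic acid from membranes, rose from 14 ± 1.44 to 28.2 ± 8.2 CPM (SD, n = 3, adjusted p = 0.0214), but passed no more once control replicate 2 or 3, or else MCT replicate 1 or 3, was dropped (adjusted p = 0.0524 to 0.0809). Ptgs2 rose 2.27-fold (adjusted p = 0.0312), a call lost without any 1 sample other than MCT replicate 2 (adjusted p = 0.0703 to 0.109). Of the genes that break epoxides down, Ephx2 had -0.39 (adjusted p = 0.519) and Ephx1 0.51 (adjusted p = 0.0801), though DESeq2 called Ephx1 higher (adjusted p = 0.0358). Lta4h, the most abundant of the list, had 0.04 (adjusted p = 0.874). Tbxas1, thromboxane synthase, is itself a P450 whose symbol lies outside the rule. It rose 2.32-fold, from 16.5 ± 4.97 to 38.5 ± 4.31 CPM (SD, n = 3, adjusted p = 0.0119), and stayed called with each sample left out. The macrophage list summed to 174 to 201 FPKM in controls and 468 to 774 FPKM in MCT lung, the endothelial list to 1300 to 1552 FPKM and 748 to 1289 FPKM, and their part in these values was not tested.

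**Figure D4:**
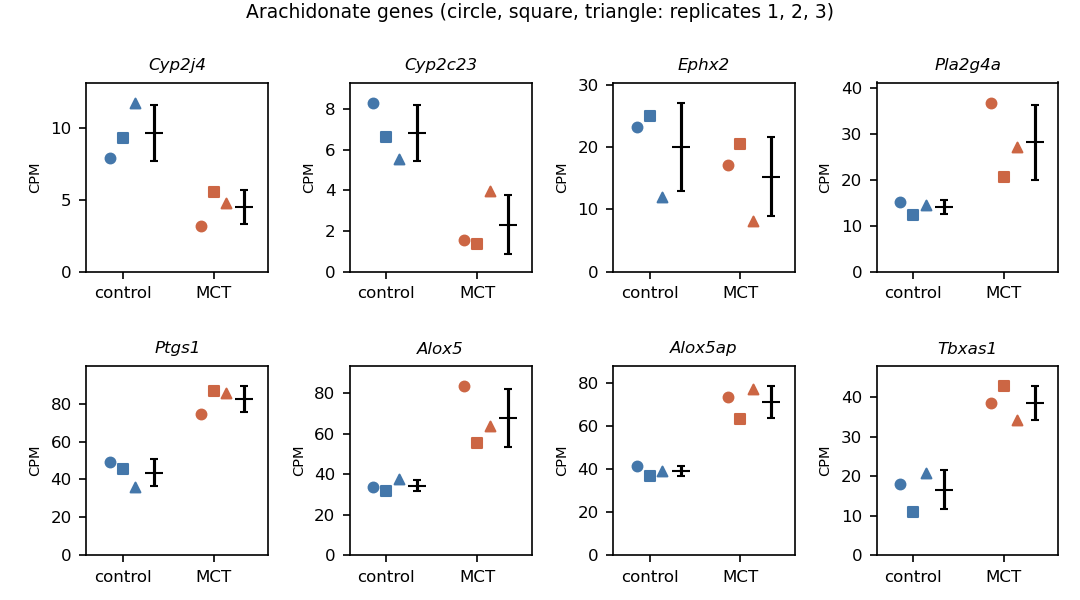
CPM on linear axes from 0 of arachidonate genes in each sample, with mean and SD (n = 3) beside the points. Cyp2j4 and Cyp2c23 lie lower in all 3 MCT samples, Pla2g4a, Ptgs1, Alox5, Alox5ap and Tbxas1 lie higher, and Ephx2 overlaps.

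Sterol and bile acid enzymes held 2 of the genes that rose. Of 7 genes 5 were tested, 2 rose, 0 fell and 3 did not pass. Cyp51, the lanosterol demethylase of cholesterol synthesis, was the only called gene of the 71 above a mean of 10 FPKM. It rose 1.83-fold, from 57.8, 55.8 and 79.6 CPM in controls to 146, 95.1 and 112 CPM after MCT (log2 fold change 0.87, SE 0.20, adjusted p = 0.0237). All MCT samples lay above all controls. Dropping control replicate 1 or 2 (adjusted p = 0.0689 and 0.0898), or MCT replicate 1 or 3 (adjusted p = 0.0617 and 0.0577), ended the call.

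The enzymes just before Cyp51 in sterol synthesis did not pass. Sqle, squalene epoxidase, had a log2 fold change of 0.45 (SE 0.22, adjusted p = 0.212) and Lss, which makes lanosterol, 0.11 (SE 0.16, adjusted p = 0.687). Both were called in none of the 16 alternatives. The deposited FPKM of Lss differed from its counts, at 27.5, 13.4 and 13.7 in controls and 11.2, 31.7 and 71.7 after MCT. With limma on log2(FPKM + 1) its log2 fold change was 0.75 (adjusted p = 0.425). Of 13 genes of sterol regulation 10 had a positive fold change, as had 7422 of all 15250 tested genes. Of the 13, 1 was called, and the highest in level, Abcg1, had 0.27 (adjusted p = 0.26). The difference between Cyp51 and these genes was not tested.

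Cyp7b1, which hydroxylates oxysterols on the way to bile acids and to ligands of the receptor Gpr183, rose 3.96-fold. It measured 5.32, 6.03 and 7.76 CPM in controls against 41.9, 12.6 and 21.6 CPM after MCT (log2 fold change 1.99, SE 0.40, adjusted p = 0.017). All MCT samples exceeded all controls, with MCT replicate 1 the highest. The call ended without control replicate 1, 2 or 3 (adjusted p = 0.0544, 0.07 and 0.0516).

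Of the genes on either side of Cyp7b1 in this route 1 passed. Gpr183, the called gene of the sterol regulation list and a guidance receptor of immune cells, rose 3.48-fold from 5.04 ± 0.792 to 17.6 ± 7.2 CPM (SD, n = 3, adjusted p = 0.0079), and was called in every alternative. Ch25h, which makes the oxysterol that Cyp7b1 uses, had 11.4 ± 5.88 and 34.6 ± 21.3 CPM (SD, n = 3), a 3.03-fold difference with overlapping groups that did not pass (adjusted p = 0.0581) and was called in 4 of 16 alternatives. MCT replicate 1 was the highest sample for Cyp7b1, Ch25h and Gpr183 alike. Macrophage markers were also higher, with 6 of 7 tested called: C1qa rose 5.08-fold, while Marco was at 0 counts in every control. Their part in the Cyp7b1 value was not tested.

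**Figure D5:**
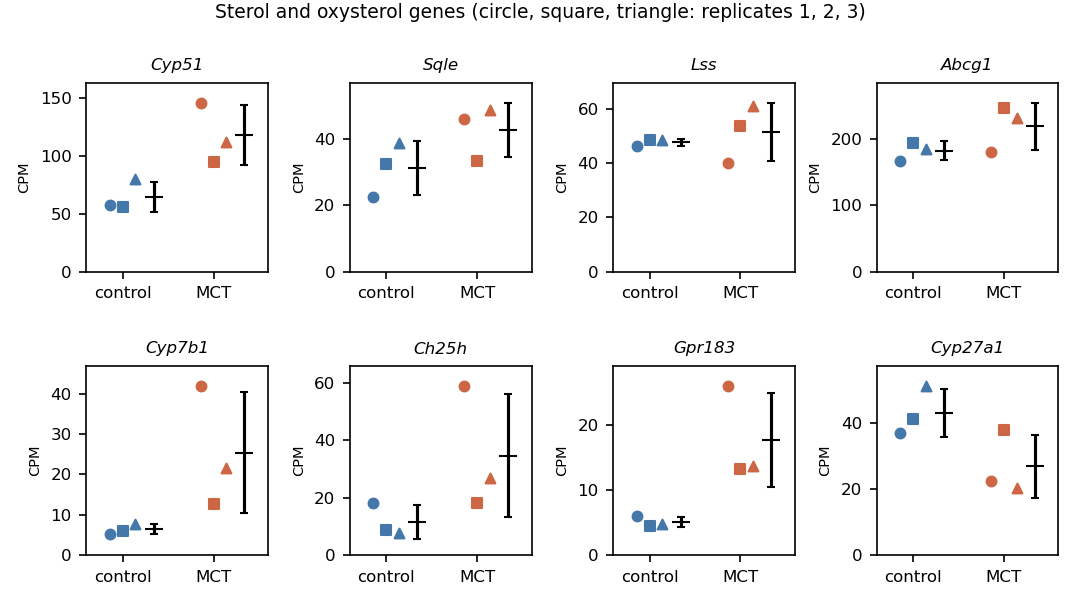
CPM on linear axes from 0 of sterol and oxysterol genes in each sample, with mean and SD (n = 3) beside the points. Cyp51, Cyp7b1 and Gpr183 lie higher in all 3 MCT samples, Sqle, Lss, Abcg1 and Ch25h did not pass, and Cyp27a1 lies lower on average with MCT replicate 2 within the controls.

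Other sterol hydroxylases had negative fold changes that did not pass. Cyp27a1, the mitochondrial enzyme that oxidizes the cholesterol side chain, measured 36.9, 41.2 and 51 CPM in controls against 22.3, 37.8 and 20.3 CPM after MCT (log2 fold change -0.68, SE 0.24, adjusted p = 0.101). Dropping MCT replicate 2 brought the call (-1.02, adjusted p = 0.00997). Cyp46a1, the cholesterol hydroxylase of neurons, was below the controls in all 3 MCT samples at 0.949 to 1.24 CPM against 1.8 to 2.76 CPM (log2 fold change -1.06, adjusted p = 0.0714), and so was Cyp39a1 (-0.41, adjusted p = 0.303). The liver genes Cyp7a1 and Cyp8b1 had 0 to 6 counts per library.

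Steroid hormone synthesis was represented by 1 tested gene of 5. Cyp21a1, the steroid hydroxylase of the adrenal cortex, rose 2.62-fold, from 5.26, 2.9 and 2.8 CPM in controls to 10.3, 8.95 and 9.46 CPM after MCT (log2 fold change 1.39, SE 0.28, adjusted p = 0.0173). The call ended without control replicate 2 or 3 (adjusted p = 0.0682 and 0.071). Cyp11a1, which starts steroid synthesis from cholesterol, had 0 to 3 counts per library, and Cyp17a1 had 0 in every library. Among adrenal and gonad markers edgeR, DESeq2 and limma-voom called 0 of 3 tested genes and 0 had an unadjusted p under 0.05, with a summed level of 9.91 to 11.4 FPKM in controls and 8.95 to 9.38 FPKM in MCT lung.

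In RefSeq's gene models Cyp21a1 overlaps the pseudogene Tnxa-ps1 and lies near the complement gene C4a, and a pseudogene copy, Cyp21a1-ps, lies near C4b. C4a is far more abundant and rose 3.34-fold, from 238 ± 36.3 to 793 ± 48.6 CPM (SD, n = 3, adjusted p = 0.00078), and its copy C4b rose 2.88-fold (adjusted p = 0.0025). Counts of C4a and C4b were not whole in all 6 libraries, so the division of reads between these 2 copies is uncertain. The deposited count of Cyp21a1 was whole in every library. No source states whether the libraries keep strand, and the part of transcription from this locus in the Cyp21a1 count was not tested.

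Of the retinoic acid and vitamin D enzymes 3 were tested, and edgeR, DESeq2 and limma-voom each called 0. Only Cyp27b1 among them had an unadjusted p under 0.05 in edgeR. Cyp26b1, which clears retinoic acid, measured 52.9, 18.7 and 19.1 CPM in controls against 19.9, 25.5 and 27.2 CPM after MCT. Control replicate 1 stood apart, and the log2 fold change turned from -0.32 (adjusted p = 0.623) to 0.36 (adjusted p = 0.232) without it. Cyp26a1 had 2 to 17 counts per library, and Cyp26c1 had 0 in all controls and 6, 1 and 1 in MCT replicates 1 to 3. Among 13 tested retinoid pathway genes 1 fell. This was Aldh1a2, which makes retinoic acid, at 1.99-fold lower (adjusted p = 0.036), a call lost without any 1 sample other than MCT replicate 3 (adjusted p = 0.0703 to 0.11). Aldh1a1, the most abundant of the list, had a log2 change of -0.72 (adjusted p = 0.0931).

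Cyp27b1, which activates vitamin D, had 8, 1 and 5 counts in controls against 11, 13 and 16 after MCT, and passed the low-count filter through the MCT group alone (log2 fold change 1.54, SE 0.59, adjusted p = 0.122). Cyp2r1, which acts one step earlier, had 0.33 (SE 0.46, adjusted p = 0.688), and Cyp24a1, which degrades the hormone, had no count. The receptor gene Vdr rose 1.79-fold (adjusted p = 0.0412), a call lost in 9 of 16 alternatives, among them dropping any single sample but MCT replicate 2 (adjusted p = 0.0841 to 0.131). Lrp2, a receptor that takes up vitamin D carrier and the highest of that list, had -0.52 (adjusted p = 0.367). Of P450 genes with no settled role, Cyp20a1 stood at 37.6 ± 4.03 and 45.4 ± 6.96 CPM (SD, n = 3, log2 fold change 0.27, adjusted p = 0.263).

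Genes without any count were Cyp2b3, Cyp2b12, Cyp2b15, Cyp2b21, Cyp2c6v1, Cyp2c7, Cyp2c12, Cyp2c24, Cyp2j16, Cyp2w1, Cyp3a23/3a1, Cyp4x1, Cyp17a1 and Cyp24a1. A count of 0 in all 6 libraries allows up to 0.0323 CPM, which is 3 counts over their total and covers counting error only. The 26 genes with counts but no test held 332 counts in all and at most 69 each. Cyp2c11, the main male liver form, had 1, 2 and 9 counts in controls and 1, 0 and 0 in MCT lung.

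The MCT samples differed among themselves in a pattern shared by many P450 genes. MCT replicate 1 was the lowest MCT sample in 19 of the 31 tested genes, 61.3%, against 35.1% of all tested genes. MCT replicate 2 was the highest in 15 of them, 48.4%, against 35.5%. MCT replicate 2 was also the highest MCT sample for 8 of 8 endothelial and 6 of 6 alveolar type 1 markers. It was the highest for 0 of 8 alveolar type 2, 0 of 6 tested club and secretory and 0 of 6 ciliated markers. MCT replicate 1 was the lowest for 6 of 8 endothelial, 5 of 6 alveolar type 1 and 6 of 8 alveolar type 2 markers. For club and secretory and for ciliated markers it was the lowest in 2 of 6 each. The part of cell makeup in this pattern was not tested.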

How the data were processed

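PolyA RNA of 6 rat lung samples was sequenced, and groups and replicate numbers were read from the sample titles. The authors deposited an estimated count and an FPKM value per gene. Bowtie2, TopHat2 2.0.3.12 and the build Rnor_6.0 stand in the submitters' processing notes, while no counting tool or annotation release is named in those sources. The share of whole numbers among non-zero deposited estimated counts was 90.7% to 91.5%, so the planned count tests were run on rounded values. The deposited FPKM values served to compare levels between genes and, as log2(FPKM + 1) and log2(FPKM + 0.1) with limma 3.58.1, as alternatives.

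The main test was that of edgeR 4.0.16 in R 4.3.3 (glmQLFTest) with TMM factors, without covariates. filterByExpr (minimum count 10, minimum total 15) kept 15250 genes. SEs were derived from the fold change and its F statistic. Alternatives were DESeq2 1.42.0, limma-voom, 2 other scalings, 2 other filters, each sample left out, the title number as a block, and summing identifiers of 1 symbol. The edgeR step was tested on simulated data. Like samples were not copies of one library (chi-square per degree of freedom 23.2 to 52.6).

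The members and lists were chosen with earlier results of these data known. Genes named are the called P450 genes, the 15 of highest mean FPKM, the highest of each role, and from the other lists every called gene and the highest, apart from a few that are not reported here. Further genes were chosen after their values were seen. No genome of the files' build was used, and promoter positions are RefSeq's on GRCr8.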

Additional observations from a re-analysis of the deposited data

How the results depend on the processing

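Between tools, scalings, filters and FPKM scales, the count of P450 genes called stayed at 4 or 5 higher and 3 or 4 lower. Leaving out 1 sample gave 1 to 4 higher and 0 to 6 lower, and over all genes 481 to 1394 higher and 212 to 978 lower against 1221 and 779. Log2 fold changes that turned sign with 1 sample left out ranged from -0.71 to 1.47 for Cyp1a1, -0.14 to 0.07 for Cyp4f17, -0.57 to 0.36 for Cyp26b1, -0.03 to 0.62 for Cyp2r1, -0.02 to 0.16 for Lta4h and -0.10 to 0.40 for Foxj1. Other P450 or named genes that did so were Cyp2t1 (-0.22 to 0.08), Por (-0.15 to 0.29), Lss (-0.02 to 0.27), Vamp7 (-0.04 to 0.34), Nqo1 (-0.08 to 0.13) and Nr1i2 (-1.43 to 0.51). These fits hold fewer samples, and with 2 samples in an arm the spread is pooled.

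The P450 share of counts was 0.132% in control and 0.106% in MCT lung. As a share of summed FPKM it was 0.0998% and 0.0754%. With LOC108348266, an alternative chosen after the data were seen, the share of counts was 0.219% and 0.161%.

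With the replicate number as a block, 4 P450 genes were higher and 2 lower, and the call of Cyp2c23 ended (adjusted p = 0.0656). Same-numbered samples did not deviate together (correlations -0.0649, -0.077 and -0.0301), so the numbers were not taken as pairs.

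Of 1232 values from alternatives for the 77 genes of the naming rule, 1102 kept their direction and side of the threshold, 103 lost a call, 15 gained one and 12 turned sign. At this depth 26 P450 genes fell below the low-count filter. Fitted without that filter, 0 of them were called, with adjusted p from 0.163 (Cyp26c1) to 0.999, and the 14 without counts could not be fitted.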
